A study of Mus musculus with 12 samples.

Results

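The mouse genes whose symbol is Zfp followed by exactly 3 digits, and which GENCODE M21 annotates as protein-coding, were followed through 4 RNA preparations of the cortex. They made up 313 of the 29879 gene rows of the count files. The expression filter, which needs enough counts in at least as many libraries as a group holds, kept 259 of them among 13404 genes tested. Of the 54 that were not tested, 22 had no count in any library and the highest count of the other 32 in any library was 18.

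Every library, the WCH controls included, was made from cortex tissue of the SNAP25 bacTRAP transgenic line, taken at postnatal day 21. In such a line a ribosomal protein tagged with enhanced green fluorescent protein (eGFP) is made under a chosen gene's control, here that of the neuronal gene Snap25, so that tagged ribosomes can be pulled down with the mRNA on them. A sucrose and percoll gradient gave a band of nerve terminals, the synaptic band. SynapTRAP is the eGFP pull-down from it, and SNF is that band with no pull-down. TRAP is the eGFP pull-down from cortex, and WCH is cortex RNA with no pull-down. Each group had 3 libraries. Nothing in the labels says that these were separate animals, so each p-value measures the spread between libraries.

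Most Zfp proteins carry C2H2 zinc fingers, short loops in which a pair of cysteines and a pair of histidines hold a zinc ion and whose tips read DNA bases. In a large subfamily the N-terminus holds a KRAB (Krüppel-associated box) domain, which recruits the corepressor TRIM28 and, through it, histone methyltransferases and heterochromatin proteins, largely at retroelements. These genes lie in clusters that grew by duplication. Others have no KRAB domain and include regulators of neural development, RNA-binding proteins and ribosome-associated proteins. The Zfp symbol therefore groups genes by a name, not by 1 function.

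A KRAB motif, found when at most 3 of 14 fixed positions mismatched in a 30-residue window of the translated longest coding transcript, was present in 174 Zfp genes and absent in 139. The genome as a whole had it in 321 of 21817 coding genes (1.471%). With up to 5 mismatches 177 Zfp genes had it. A KRAB domain further from the motif, or on another transcript, would be missed. The class without the motif can thus hold genes with a KRAB domain, and the class calls here rest on the motif. At least 2 C2H2 motifs were found in 291 Zfp genes, against 3.103% of all coding genes, and the number per protein ranged from 0 to 36 with a median of 10. The median was 11 with the KRAB motif and 7 without it. Of the 210 Zfp genes that had another within 500 kb, 155 carried the KRAB motif. Chromosome 7 held 74 Zfp genes and chromosome 17 held 32.

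The KRAB boxes of 3 genes on chromosome 17 are shown because these genes were lower in both TRAP and SNF than in WCH. Each line gives 90 bases of coding sequence, 5′ to 3′ on the gene's own strand, from GENCODE M21 transcripts on GRCm38, and capitals mark codons that match the fixed positions of the motif. Zfp871 (chr17:32765496-32788287, minus strand, coding bases 16 to 105) and Zfp799 (chr17:32815449-32830261, minus strand, coding bases 16 to 105) lie near each other, and Zfp760 (chr17:21707741-21725636, plus strand, coding bases 28 to 117) lies elsewhere on the chromosome.
Zfp871: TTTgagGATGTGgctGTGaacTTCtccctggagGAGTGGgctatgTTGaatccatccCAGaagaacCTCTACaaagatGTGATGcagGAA
Zfp799: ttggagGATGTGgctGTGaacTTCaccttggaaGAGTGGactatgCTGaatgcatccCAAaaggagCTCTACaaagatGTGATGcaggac
Zfp760: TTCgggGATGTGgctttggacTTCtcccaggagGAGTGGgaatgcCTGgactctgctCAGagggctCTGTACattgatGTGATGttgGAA

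One finger each of 3 genes is shown for comparison, since Zfp523 and Zfp423, which lack the KRAB motif, were among the few Zfp genes higher in a pull-down or in the synaptic band. Capitals mark the codons of the 2 cysteines and 2 histidines that hold the zinc ion. The stretches are coding bases 667 to 729 of Zfp871, 589 to 657 of Zfp523 (chr17:28177129-28205886, plus strand) and 526 to 588 of Zfp423 (chr8:87661810-87959595, minus strand).
Zfp871: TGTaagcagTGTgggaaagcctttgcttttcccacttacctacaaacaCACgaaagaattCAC
Zfp523: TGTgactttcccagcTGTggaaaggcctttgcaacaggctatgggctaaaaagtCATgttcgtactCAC
Zfp423: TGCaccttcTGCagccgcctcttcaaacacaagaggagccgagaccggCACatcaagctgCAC

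The depth behind these values was uneven. Counts outside the mitochondrial genome were 3585898 to 7115176 in SynapTRAP, 1819853 to 2111322 in SNF, 4328253 to 6168574 in TRAP and 4462407 to 6032062 in WCH. Mitochondrial RNA took 84.6% ± 2.58 (SD, n = 3) of the SNF gene counts and 40.5% ± 9.14 of those in WCH. It took 39.4% ± 21.8 in SynapTRAP and 3.84% ± 2.52 in TRAP. SynapTRAP was the most uneven group, at 20.4% to 63.3%. Its replicate 3 had the highest of these shares and, at 3585898, the fewest other counts. The median tested Zfp gene had only 13 to 16 counts in an SNF library, against 64 to 95 in a WCH library. In SNF, 85 to 101 of the 259 tested Zfp genes had under 10 counts. Of the tested Zfp genes 27 shared more than 20% of their transcript 50-mers with another gene, and their counts are uncertain. Since no strand setting is given, counts of genes that overlap another gene or have an antisense partner are uncertain too.

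Zfp genes were mostly expressed at low levels. Levels as CPM, the counts scaled to a common library size by the trimmed mean of M-values (TMM), were divided by exonic length to compare genes. The median tested Zfp gene had 1.35 CPM per kb in WCH, against 2.20 CPM per kb for all 12927 tested protein-coding genes. It was 1.13 CPM per kb with the KRAB motif and 1.64 without. Zfp365, which binds the neuronal scaffold protein DISC1, stood far above all others with 76.7 CPM per kb in WCH. The next were Zfp706, which restrains Klf4 in mouse embryonic stem cells, at 16.3, Zfp207 (BuGZ), a kinetochore and spindle protein, at 13.2, the KRAB gene Zfp871 at 11.5, and Zfp148 (ZBP-89), a regulator that binds GC-rich promoters, at 8.72 CPM per kb.

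The summed level of the 174 genes with a KRAB motif was lower in each of the 3 other preparations than in WCH. It was 549, 531 and 630 CPM in SynapTRAP, 550, 544 and 647 CPM in SNF and 764, 726 and 594 CPM in TRAP, against 987, 1081 and 1027 CPM in WCH. No library of the other 3 groups reached the lowest WCH library. The 138 genes without the motif other than Zfp365 summed to 1741 ± 362 CPM in SynapTRAP, 1413 ± 149 CPM in SNF, 1814 ± 122 CPM in TRAP and 2025 ± 79.9 CPM in WCH (SD, n = 3 each). Every SNF and TRAP library was again below the lowest WCH library, at 1957 CPM, with the highest TRAP library at 1939 CPM. Outside WCH only SynapTRAP replicate 3, at 2149 CPM, was above it. Zfp365 alone took 24% ± 5.60 of the summed Zfp level in SynapTRAP, 17.6% ± 2.06 in SNF, 11.2% ± 2.18 in TRAP and 11.5% ± 1.59 in WCH. In these bulk samples, fewer cells of a type and less RNA per cell cannot be told apart.

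**Figure D1:**
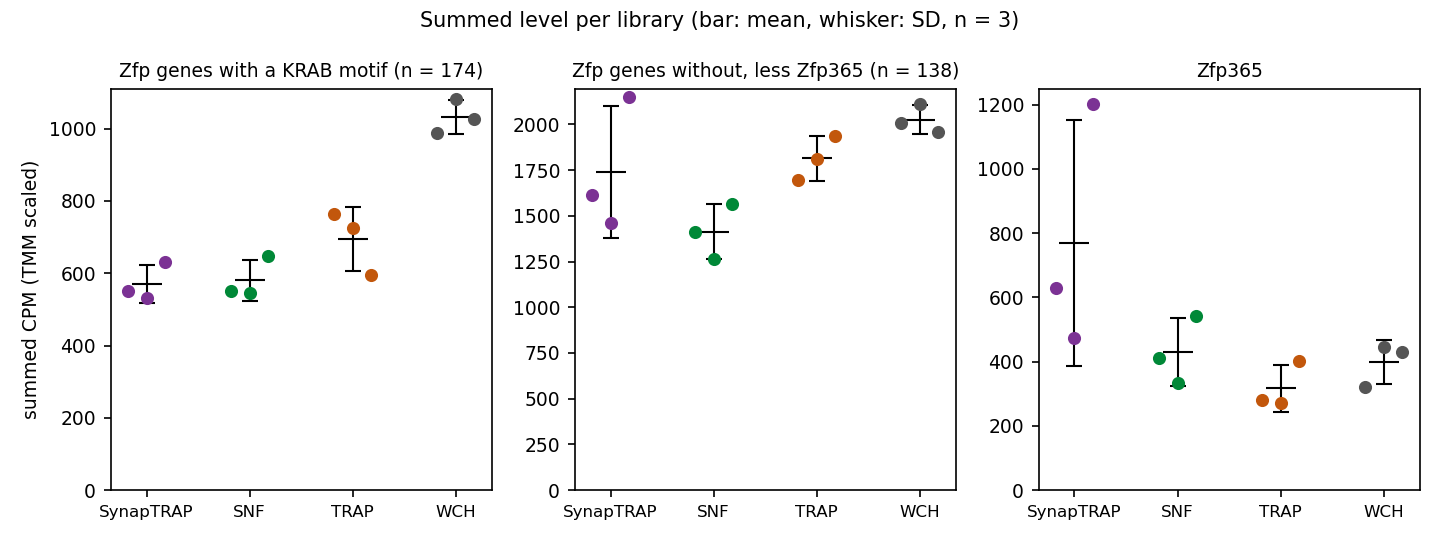
Summed CPM of Zfp genes with a KRAB motif (left), without one and less Zfp365 (middle) and of Zfp365 (right), on the vertical axes, in the 4 groups on the horizontal axes. Points are libraries, bars are means and whiskers SD (n = 3). The WCH libraries, at 987 to 1081 CPM, sit above all others in the left panel.

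In SNF against WCH, which asks what the synaptic band holds relative to the cortex, Zfp genes were lower almost throughout. Of the 259 tested, 68 (26.3%) fell and 2 (0.772%) rose at an adjusted p under 0.05 in edgeR's quasi-likelihood test, against 16.5% of all tested genes that fell and 20.6% that rose. The median log2 fold change was -0.72 for Zfp genes and -0.25 for all tested genes, and 236 of the 259 Zfp values were negative. Every SNF library lay below every WCH library for 138 Zfp genes (background 33.6%) and above for 7 (background 25.6%). With the KRAB motif 35 of 130 fell, none rose, and the median was -0.87. Without it 33 of 129 fell, 2 rose and the median was -0.64. With each library left out in turn, 13 to 39 genes with the motif and 17 to 43 without it fell. Over all genes 970 fell without WCH replicate 1 and 2633 without SynapTRAP replicate 3. With the motif 13 fell without SNF replicate 1, 16 without SNF replicate 2, WCH replicate 1 or WCH replicate 2, and 19 without WCH replicate 3. Without the motif 17 or 18 fell when SNF replicate 1 or 2 or WCH replicate 1 or 2 was left out, and 20 or 21 when SynapTRAP replicate 1 or any TRAP library was. In edgeR no KRAB gene was higher at an unadjusted p under 0.05 either, and DESeq2 called 0 higher.

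The falls with the largest fold change among genes whose libraries did not overlap were in low-level genes. Zfp286 had 1.15, 1.6 and 1.70 CPM in SNF, against 5.02, 6.22 and 7.24 CPM in WCH (log2 fold change -2.03 ± 0.47 SE, adjusted p = 0.00172). The KRAB gene Zfp941 had 3.74, 3.99 and 2.19 CPM in SNF, against 14.8, 10.5 and 10.8 CPM in WCH (-1.87 ± 0.39, adjusted p = 7.47e-04). Every SNF library lay far below the lowest WCH library for both genes. The KRAB gene Zfp948 averaged 2.79 ± 0.563 CPM in SNF and 10.2 ± 1.92 CPM in WCH (SD, n = 3 each), with a log2 fold change of -1.86 and an adjusted p of 0.00141. Zfp850 and Zfp235, both with the KRAB motif, had log2 fold changes of -2.14 and -1.82 but only 1 to 2 and 1 to 5 counts per SNF library. The Zfp850 call was lost without SNF replicate 1 or 2 or WCH replicate 1 or 2 (log2 fold change -2.17 to -1.92), and under DESeq2. The Zfp235 call was lost without SNF replicate 1 or 2 or any WCH library (-1.89 to -1.42).

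Only 2 Zfp genes were called higher in SNF, the paralogues Zfp423 and Zfp521, regulators of neural progenitors that also bind early B-cell factors. Zfp423 had 24.2, 15.7 and 14.1 CPM in SNF, against 10.6, 8.99 and 4.58 CPM in WCH (log2 fold change 1.15 ± 0.31 SE, adjusted p = 0.00584). Zfp521 had 14.7, 13.0 and 15.6 CPM in SNF, against 10.4, 6.62 and 6.69 CPM in WCH (0.87 ± 0.28, adjusted p = 0.0176). No SNF library fell within the WCH range of either gene. The Zfp423 call was lost without SNF replicate 1 (0.88), and the Zfp521 call without SNF replicate 1 or 3 or WCH replicate 2 or 3 (0.74 to 0.85). The Zfp521 call was also lost with totals outside the mitochondrial genome as library size (0.47).

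Markers of non-neuronal cells and nuclear RNAs moved with this comparison. All 12 astrocyte, all 12 microglia, all 8 fibroblast and meninges markers, 7 of 12 oligodendrocyte markers and 4 of 7 oligodendrocyte precursor markers rose in SNF, and none fell. Of 10 endothelial markers 2 rose and none fell, with a median log2 fold change of 1.52 and negative values for 3. The summed astrocyte level was 13913 to 19167 CPM in SNF and 2322 to 2928 CPM in WCH, and that of microglia was 357 to 729 CPM in SNF and 89.8 to 112 CPM in WCH. Of 12 neuronal markers 2 rose and 2 fell. The summed level of 8 nuclear-retained noncoding RNAs was 844 to 3429 CPM in SNF and 14275 to 23650 CPM in WCH, and 2 of the 7 tested, Malat1 and Miat, fell. No marker of these lists was at 0 in every library of a group. The part of these shifts in the Zfp values was not tested.

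The count of 68 depended on scaling and on single libraries. It was 41 with the relative log expression (RLE) scaling and 43 with DESeq2. With totals outside the mitochondrial genome as library size, a scaling that moved the median of all genes to -0.63, it was 144. The number of all genes that fell moved too. It was 2209 in the main test, 1415 with RLE scaling, 1502 with DESeq2 and 4850 with those totals. The Zfp median relative to that of all genes was -0.47 in the main test and between -0.51 and -0.42 under the alternatives tried. Leaving out SNF replicate 1 gave 30 falls and leaving out SNF replicate 2 gave 34. Leaving out a WCH library gave 33, 33 and 42 falls, in the order of their numbers, and leaving out TRAP replicate 2 gave 45. Over all genes 1238 fell without SNF replicate 1 and 1148 without SNF replicate 2. Without a WCH library 970, 1353 and 1423 of all genes fell, in the same order, and without TRAP replicate 2 it was 1617. Without SNF replicate 1 no Zfp gene was called higher, and without SNF replicate 3, WCH replicate 2 or WCH replicate 3 the number was 1. In all, 21 of the 70 calls, each of them a fall, held without each of the 12 libraries in turn.

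**Figure D2:**
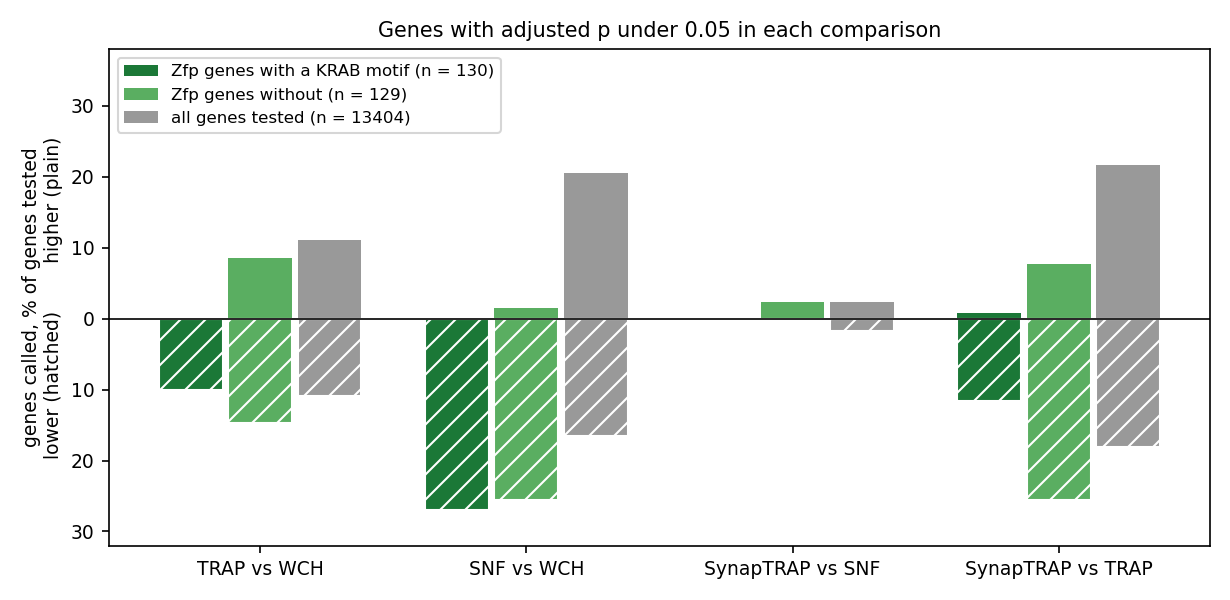
Share of tested genes called higher (plain, above 0) or lower (hatched, below 0) at an adjusted p under 0.05, in percent on the vertical axis, for Zfp genes with and without a KRAB motif and all 13404 tested genes, in 4 comparisons on the horizontal axis. In SNF vs WCH few Zfp genes rose, where 20.6% of all genes did.

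In TRAP against WCH, which compares mRNA on tagged ribosomes with cortex RNA, the Zfp genes that rose all lacked the KRAB motif. Of 259 tested, 11 rose (4.25%) and 32 fell (12.4%), against 11.1% and 10.9% of all tested genes, and the median log2 fold change was -0.29 for Zfp genes and -0.01 for all genes. With the motif 0 of 130 rose, 13 fell and the median was -0.47, and without it 11 of 129 rose, 19 fell and the median was -0.05. Among KRAB genes 1 was higher at an unadjusted p under 0.05 in edgeR, and DESeq2 called 0 higher. No alternative tried called a gene with the KRAB motif higher, but none changed the motif rule. The difference between the 2 classes itself was not tested. The counts of each class, like those of all genes given below, changed when single libraries were left out. With the motif 7 fell without WCH replicate 1, WCH replicate 2 or TRAP replicate 3, and 20 fell without SynapTRAP replicate 3. The median with the motif was -0.27 without TRAP replicate 3. Without the motif 6 rose and 8 fell when WCH replicate 1 was left out, 4 rose and 5 fell without WCH replicate 2 and likewise without WCH replicate 3, 6 rose and 11 fell without TRAP replicate 2, and 5 rose and 6 fell without TRAP replicate 3.

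Zfp871, Zfp799 and Zfp760, whose KRAB boxes are printed above, were lower on tagged ribosomes. Zfp871 had 59.1, 49.0 and 65.3 CPM in TRAP, against 132, 132 and 119 CPM in WCH (log2 fold change -1.14 ± 0.20 SE, adjusted p = 6.57e-04). Zfp799 had 11.8, 6.88 and 12.5 CPM in TRAP, against 27.2, 29.1 and 28.3 CPM in WCH (-1.43 ± 0.26, adjusted p = 8.85e-04). Zfp760 had 3.81, 4.44 and 2.14 CPM in TRAP, against 9.11, 10.1 and 9.81 CPM in WCH (-1.48 ± 0.31, adjusted p = 0.00234). The WCH libraries of each gene were close together and lay well above the TRAP libraries. All 3 were also called lower in SNF than in WCH, at -0.92 ± 0.20 for Zfp871, -1.005 ± 0.27 for Zfp799 and -1.02 ± 0.33 for Zfp760, a comparison that uses the same WCH libraries. The SNF call was lost without SNF replicate 2 for Zfp799 (-0.83), and without SNF replicate 1 or 2 or any WCH library for Zfp760 (-1.03 to -0.96).

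Zfp451, a ligase for the small modifier SUMO, had the smallest adjusted p of the 259 Zfp genes in both TRAP and SNF against WCH. It had 33.2, 28.7 and 30.3 CPM in TRAP, against 76.2, 74.5 and 74.0 CPM in WCH (log2 fold change -1.28 ± 0.20 SE, adjusted p = 2.87e-04). SNF was at the same level as TRAP, with 30.8, 28.2 and 29.7 CPM (-1.34 ± 0.21 against WCH, adjusted p = 4.13e-05). SynapTRAP held 27.4, 32.3 and 37.2 CPM. Every library other than WCH was thus at 27.4 to 37.2 CPM, far below the lowest WCH library. Zfp932, a KRAB repressor of endogenous retroviruses, also fell in TRAP, with 3.74, 3.90 and 1.80 CPM, against 8.03, 8.52 and 9.90 CPM in WCH (-1.48 ± 0.36, adjusted p = 0.00627), but 37.0% of its 50-mers occur in another gene. Zfp263 (-1.49) and the KRAB gene Zfp229 (-1.58) fell too. The Zfp263 call did not hold when replicate 2 or 3 of WCH or of TRAP was left out (-1.45 to -1.25), and the Zfp229 call without any WCH library, TRAP replicate 1 or TRAP replicate 3 (-1.70 to -1.20).

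Among genes that rose in TRAP, Zfp523, the mouse counterpart of the human activator ZNF76, had 25.6, 29.6 and 64.0 CPM in TRAP, against 14.4, 17.8 and 16 CPM in WCH (log2 fold change 1.30 ± 0.30 SE, adjusted p = 0.00395). TRAP replicate 3 stood above the other TRAP libraries, and without it the log2 fold change was 0.81 and still called. Zfp865 had 21.4, 24.4 and 28.9 CPM in TRAP, against 12.3, 13.0 and 10.3 CPM in WCH (1.07 ± 0.27, adjusted p = 0.00708), and 26.8% of its 50-mers occur in another gene. Zfp853 averaged 3.02 ± 1.62 CPM in TRAP and 0.780 ± 0.286 CPM in WCH (1.91 ± 0.53, adjusted p = 0.013), a call that did not hold when replicate 3 of WCH or of TRAP was left out (1.44 to 1.67). Zfp628 (1.21) and Zfp341 (1.10), whose human counterpart ZNF341 switches on STAT3, rose as well. The Zfp628 call did not hold when WCH replicate 2, WCH replicate 3 or TRAP replicate 2 was left out (0.94 to 1.23), and the Zfp341 call without any WCH library or TRAP replicate 2 or 3 (0.91 to 1.12).

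The glial markers and the fibroblast and meninges markers that were called moved the opposite way from SNF. In TRAP against WCH 7 of 12 astrocyte, 7 of 12 oligodendrocyte, 2 of 7 oligodendrocyte precursor, 4 of 12 microglia and 2 of 8 fibroblast and meninges markers fell and none rose, and 5 of 12 neuronal markers rose. Endothelial markers were not among those that fell. Their median log2 fold change was 1.36, 1 of 10 was negative and none was called, and their summed level was 8.65 to 47.3 CPM in TRAP and 11.9 to 13.5 CPM in WCH. The summed astrocyte level was 674 to 1426 CPM in TRAP and 2322 to 2928 CPM in WCH. Summed microglia and oligodendrocyte precursor levels were likewise lower in every TRAP library than in WCH. Summed oligodendrocyte markers were at 2229, 534 and 7106 CPM in TRAP and 2673 to 3419 CPM in WCH. Those of fibroblasts and meninges were at 67.8, 26.8 and 140 CPM in TRAP and 61.4 to 81.1 CPM in WCH. TRAP replicate 3 was thus above every WCH library for both. Summed nuclear-retained RNAs were at 877 to 1852 CPM in TRAP and 14275 to 23650 CPM in WCH, and Malat1 and Miat fell. The part of these shifts in the Zfp values was not tested. The number of Zfp genes that rose was 7 with totals outside the mitochondrial genome as library size, with 43 that fell. Over all genes 974 rose and 1776 fell under this scaling, against 1488 and 1459 in the main test. Leaving out TRAP replicate 2 gave 6 rises, and leaving out TRAP replicate 3 gave 5 rises and 13 falls. Leaving out WCH replicate 1 gave 6 rises and 15 falls, WCH replicate 2 gave 4 and 12, and WCH replicate 3 gave 4 and 14. Over all genes 1321 rose without TRAP replicate 2, and 969 rose and 969 fell without TRAP replicate 3. Without a WCH library, in the same order, 954, 652 and 755 of all genes rose and 944, 832 and 863 fell. In all, 13 of the 43 calls, 3 rises and 10 falls, held without each of the 12 libraries in turn.

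**Figure D3:**
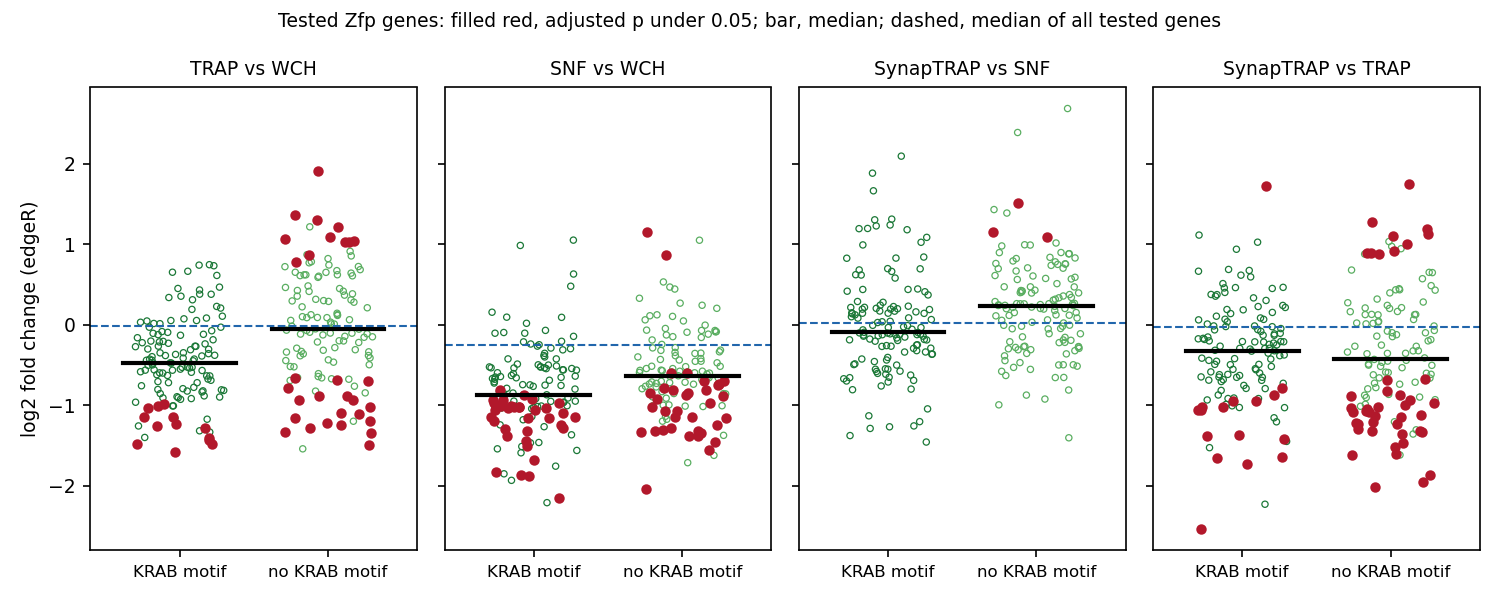
The log2 fold change of each of the 259 tested Zfp genes (vertical axis) in 4 comparisons, split by the KRAB motif (horizontal axis). Red points are called, black bars are medians and the dashed line is the median of all tested genes. In TRAP vs WCH the called rises are all among genes without the motif, whose median is -0.05, against -0.47 with it.

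In SynapTRAP against TRAP, which sets tagged ribosomes of the synaptic band against those of the cortex, 11 Zfp genes rose (4.25%) and 48 fell (18.5%), against 21.6% and 18.1% of all tested genes. The median log2 fold change was -0.35 for Zfp genes and -0.02 for all genes. With the KRAB motif 1 of 130 rose, 15 fell and the median was -0.32, and without it 10 of 129 rose, 33 fell and the median was -0.43. The share that fell was thus near the background and the share that rose was below it.

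Zfp652, which in human cells represses with the corepressor CBFA2T3, had the rise with the smallest adjusted p. It had 64.5, 64.9 and 108 CPM in SynapTRAP, against 19.2, 25.7 and 25.4 CPM in TRAP (log2 fold change 1.75 ± 0.25 SE, adjusted p = 1.76e-05). The SynapTRAP libraries lay far above the TRAP libraries. Its SNF level was 64.7, 49.996 and 72.7 CPM, which overlapped SynapTRAP, and its WCH level was 41.5, 52.4 and 35.6 CPM. In TRAP against WCH it fell (-0.88 ± 0.25, adjusted p = 0.0136), a call that did not hold when WCH replicate 2 or TRAP replicate 1 was left out (-0.73 to -0.72). Zfp365 had 631, 474 and 1201 CPM in SynapTRAP, against 281, 270 and 402 CPM in TRAP (1.27 ± 0.30, adjusted p = 0.00209). SynapTRAP replicate 3 stood apart, and without it the log2 fold change was 0.80 and still called. Zfp516, a partner of PRDM16 in brown fat, averaged 11.2 ± 3.41 CPM in SynapTRAP and 4.87 ± 1.24 CPM in TRAP (1.19 ± 0.30, adjusted p = 0.00325). Zfp106, an RNA-binding protein needed by motor neurons, had 125, 84.4 and 151 CPM in SynapTRAP, against 41.1, 53.5 and 70.8 CPM in TRAP (1.12 ± 0.24, adjusted p = 9.19e-04), but 24.7% of its 50-mers occur in another gene. Zfp423 and Zfp521 rose here too, at 1.10 ± 0.29 and 0.92 ± 0.27. The only KRAB gene that rose, Zfp229, had 3.61, 2.35 and 2.06 CPM in SynapTRAP, against 0.816, 1.27 and 0.343 CPM in TRAP (1.73 ± 0.51, adjusted p = 0.01), and its call was lost without SynapTRAP replicate 1 (1.42).

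The falls with the largest fold changes were in low-level genes. Zfp580 had 2.89, 3.79 and 4.87 CPM in SynapTRAP, against 8.70, 19.8 and 15.5 CPM in TRAP (log2 fold change -1.95 ± 0.34 SE, adjusted p = 1.32e-04). Zfp639 (ZASC1) had 3.77, 2.81 and 3.69 CPM in SynapTRAP, against 10.6, 16.8 and 9.85 CPM in TRAP (-1.86 ± 0.30, adjusted p = 6.58e-05). The ranges of the 2 groups were far apart for both genes. Zfp551 (-2.54 ± 0.76) and Zfp954 (-1.73 ± 0.49), both with the KRAB motif, had only 2 to 7 and 9 to 22 counts per SynapTRAP library, and the Zfp551 call was lost without SynapTRAP replicate 1 (-2.11). Zfp593, whose yeast counterpart helps to export the large ribosomal subunit, fell by 2.01 on the log2 scale, but 66.9% of its 50-mers occur in another gene. Zfp706 had 40.4, 32.8 and 49.5 CPM in SynapTRAP, against 62.5, 84.6 and 79.1 CPM in TRAP (-0.89 ± 0.22, adjusted p = 0.00336), and it was likewise lower in SNF than in WCH (-0.84 ± 0.23, adjusted p = 0.00597).

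Glial markers were far higher in SynapTRAP than in TRAP. All 12 astrocyte, all 12 microglia and all 7 oligodendrocyte precursor markers, 9 of 12 oligodendrocyte and 7 of 8 fibroblast and meninges markers rose, and 6 of 12 neuronal markers fell while 3 rose. The summed astrocyte level was 9154 to 16097 CPM in SynapTRAP and 674 to 1426 CPM in TRAP, and the part of this in the Zfp values was not tested. With totals outside the mitochondrial genome as library size 7 Zfp genes rose and 82 fell, and with only the 2 groups in the fit 28 fell. Over all genes 2899 rose and 2432 fell in the main test. With those totals 2071 of all genes rose and 3596 fell, and with only the 2 groups 1458 fell. Without SynapTRAP replicate 3 the number of Zfp genes that rose was 7, and 2971 of all genes rose. In all, 29 of the 59 Zfp calls held without each library in turn.

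**Figure D4:**
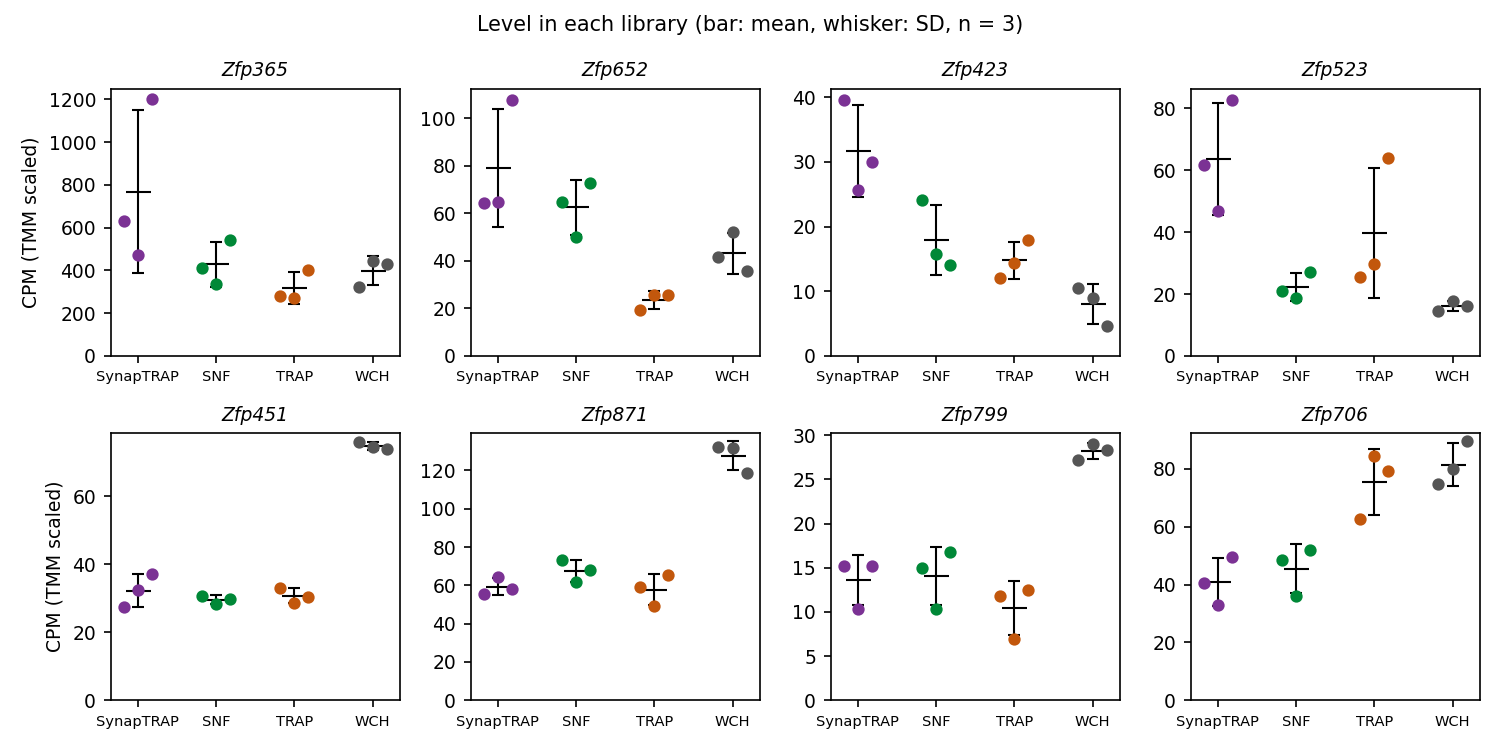
CPM (vertical axes) of 8 Zfp genes in each library of the 4 groups (horizontal axes), with means as bars and SD as whiskers (n = 3). Zfp451, Zfp871 and Zfp799 are highest in WCH, Zfp652 is lowest in TRAP at 19.2 to 25.7 CPM, and Zfp365 ranges widely in SynapTRAP, at 474 to 1201 CPM.

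In SynapTRAP against SNF, which asks what the pull-down takes from the synaptic band, 3 Zfp genes rose (1.16%) and none fell, against 2.29% and 1.79% of all tested genes. The median log2 fold change was 0.09 for Zfp genes and 0.03 for all genes. In edgeR 29 Zfp genes were higher and 9 lower at an unadjusted p under 0.05, and DESeq2 called 4 higher and 3 lower. DESeq2 gave no adjusted p for 61 of the 259 Zfp genes here. With the replicate number as a block, which pairs these libraries, 4 Zfp genes rose and 2 fell, and with RLE scaling 3 rose and 2 fell. Of all genes DESeq2 called 347 higher and 617 lower, the block 441 and 393, and RLE scaling 185 and 366. The 2 Zfp genes that fell under the block were Zfp410, which switches on the remodeller gene Chd4, at -1.42 (adjusted p = 0.0301) and Zfp654 at -0.92 (adjusted p = 0.0473). Both missed the threshold without it, at edgeR adjusted p-values of 0.0534 and 0.0556. Few markers were called in this comparison. Of 12 astrocyte markers none was called, 1 of 12 microglia and 2 of 12 oligodendrocyte markers fell, and 1 of 12 neuronal markers rose. The summed astrocyte level was 9154 to 16097 CPM in SynapTRAP and 13913 to 19167 CPM in SNF. The summed oligodendrocyte level went the other way on average, with 10038, 8863 and 21674 CPM in SynapTRAP and 7287 to 9603 CPM in SNF. Its highest value was in SynapTRAP replicate 3. The part of non-neuronal RNA in the SynapTRAP values was not tested.

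The 3 that rose were Zfp523, Zfp651 (also known as Zbtb47) and Zfp865. Zfp523 had 61.6, 46.9 and 82.9 CPM in SynapTRAP, against 21, 18.6 and 27.2 CPM in SNF (log2 fold change 1.51 ± 0.31 SE, adjusted p = 0.0104). Zfp865 had 24.1, 17.3 and 13.9 CPM in SynapTRAP, against 10.1, 9.84 and 5.11 CPM in SNF (1.16 ± 0.29, adjusted p = 0.0281). Zfp651 had 44.4, 33.0 and 54.1 CPM in SynapTRAP, against 19.3, 19.4 and 22.6 CPM in SNF (1.10 ± 0.27, adjusted p = 0.0265). No SynapTRAP library of the 3 genes fell within the SNF range. All 3 also rose in TRAP against WCH. That contrast compares other libraries but comes from the same fit, with shared scaling, filter and estimate of spread. Zfp651 had 17.6, 26 and 40.2 CPM in TRAP, against 15.4, 15.4 and 18.1 CPM in WCH (0.78 ± 0.27, adjusted p = 0.0391). The overlap of the calls was not tested. Across the 259 tested Zfp genes Spearman's rho between both pull-down log2 fold changes was 0.36, and across all tested genes it was 0.33.

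None of these 3 calls held without each library in turn. The Zfp523 call was lost without SNF replicate 1 or 2 or SynapTRAP replicate 1 (1.40 to 1.48). The Zfp865 call was lost without any SNF library, WCH replicate 1 or SynapTRAP replicate 1 (0.82 to 1.32), and with only the 2 groups in the fit. The Zfp651 call was lost without any SNF library, WCH replicate 1 or SynapTRAP replicate 1 or 3 (0.92 to 1.18), and its TRAP call without SNF replicate 1, any WCH library or TRAP replicate 3 (0.45 to 0.86). As counts, 0 rose without SNF replicate 1, SNF replicate 2 or SynapTRAP replicate 1, and 1 rose without SNF replicate 3 or WCH replicate 1. Without SynapTRAP replicate 2 the number was 9. Of all genes 307 rose in the main test, 86 without SNF replicate 1, 35 without SNF replicate 2 and 19 without SynapTRAP replicate 1. It was 24 without SNF replicate 3, 139 without WCH replicate 1 and 499 without SynapTRAP replicate 2. Without SynapTRAP replicate 3 or TRAP replicate 1 2 Zfp genes fell, and without TRAP replicate 2 or 3 the number was 3. Of all genes 240 fell in the main test and 237 without SynapTRAP replicate 3. Without TRAP replicate 1, 2 or 3 it was 393, 426 and 422.

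The effect of the pull-down in the synaptic band less its effect in cortex, on the log2 scale, was called for 1 Zfp gene (0.386%), against 0.507% of all tested genes in that direction, and for none the other way, against 0.358%. That gene was Zfp451, whose log2 difference was 1.41 ± 0.29 SE (adjusted p = 0.0282). Its log2 fold change was 0.12 ± 0.21 in SynapTRAP against SNF, which was not called, and -1.28 ± 0.20 in TRAP against WCH. The median difference was 0.36 for Zfp genes and 0.07 for all genes, and 83 of the 259 Zfp values were negative. Relative to all genes the Zfp median was 0.29, and between 0.17 and 0.37 under the alternatives tried. At an unadjusted p under 0.05 in edgeR 37 Zfp differences were positive and 2 negative. DESeq2 called 3 positive and 0 negative. DESeq2 gave no adjusted p for 92 of the 259, so these could not be called by it. The Zfp451 call was lost without SNF replicate 1 or 2, any WCH library, SynapTRAP replicate 1 or TRAP replicate 2 or 3 (1.22 to 1.44), so that the number called was then 0. It was 2 without SNF replicate 3 and 7 without SynapTRAP replicate 2. Of all genes 53 and 241 were called positive in these fits, against 68 in the main test. Without TRAP replicate 1 a single Zfp gene was called the other way, beside 298 of all genes. With the replicate block 3 were called, the others being Zfp652 at 1.22 (adjusted p = 0.0462) and Zfp799 at 1.44 (adjusted p = 0.0292).

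Grouped by known role, the 14 genes listed for neural and glial development included 4 that rose in SynapTRAP against TRAP (28.6%, against 21.6% of all tested genes). These were Zfp365, Zfp423, Zfp516 and Zfp521, and none fell (18.1% of all tested genes). For a list of 14 the share that rose was near that of all tested genes. Zfp516, described above by its partner in brown fat, is counted here as listed. The median log2 fold change of the 14 was 0.34 with 4 of 14 negative, against -0.35 for all tested Zfp genes. In SynapTRAP against SNF none was called, the median was 0.39 and 2 of 14 were negative, against a median of 0.09 for all tested Zfp genes. The median was -0.32 in TRAP and -0.25 in SNF against WCH. In SNF against WCH Zfp423 and Zfp521 rose (14.3%) and 3 fell (21.4%), namely Zfp292, Zfp462 and Zfp507. For a list of 14 these shares were near the 20.6% and 16.5% of all tested genes. Zfp292, a neurodevelopmental regulator, had 26.8, 18.3 and 30.9 CPM in SNF, against 50.8, 62.2 and 57.2 CPM in WCH (log2 fold change -1.16 ± 0.23 SE, adjusted p = 4.52e-04). Zfp462 (-0.60 ± 0.23) and Zfp507 (-0.91 ± 0.36) were near the threshold, and each call was lost without any SNF, WCH or TRAP library or SynapTRAP replicate 1 (-0.67 to -0.50 for Zfp462 and -0.99 to -0.75 for Zfp507), with RLE scaling, without the filter on low counts and under DESeq2. Of the Zfp507 50-mers 26.6% occur in another gene. In TRAP against WCH Zfp335, whose human counterpart is mutated in a form of microcephaly, rose by 1.03 ± 0.35 (adjusted p = 0.0377), a call lost without any WCH library or TRAP replicate 2 or 3 (0.78 to 1.14) and with totals outside the mitochondrial genome as library size. Zfp423 also rose in TRAP, with 12.1, 14.3 and 17.9 CPM, against 10.6, 8.99 and 4.58 CPM in WCH (0.87 ± 0.30, adjusted p = 0.0387). This call did not hold when replicate 2 or 3 of WCH or of TRAP was left out (0.60 to 0.95) and with totals outside the mitochondrial genome as library size. Zfp488, a partner of OLIG2 in oligodendrocytes, had 5.78, 2.08 and 4.45 CPM in TRAP, against 9.73, 7.64 and 9.35 CPM in WCH (-1.10 ± 0.37, adjusted p = 0.0352). The Zfp488 call was lost without any WCH library or TRAP replicate 2 or 3 (-1.20 to -0.76).

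Among 4 genes of ribosome and translation control, none was called in TRAP against WCH by edgeR. Zfp277 fell in SNF against WCH (25%, against 16.5% of all tested genes). Zfp593 had a log2 fold change of -1.37 there and missed the threshold (adjusted p = 0.0544). Zfp598, a ubiquitin ligase that marks collided ribosomes, had 13.5, 16.7 and 12.2 CPM in TRAP, against 10.3, 8.04 and 9.26 CPM in WCH (log2 fold change 0.62 ± 0.31 SE, adjusted p = 0.15). Zfp622, a maturation factor of the large ribosomal subunit, averaged 11.6 ± 3.87 CPM in TRAP and 7.57 ± 1.77 CPM in WCH, with an adjusted p of 0.187. Zfp277, which in human cells binds a protein of the small ribosomal subunit, fell in SNF, with 3.74, 3.72 and 3.41 CPM, against 7.41, 7.84 and 8.71 CPM in WCH (-1.14 ± 0.32, adjusted p = 0.0082). The SNF libraries of Zfp277 all lay below its WCH libraries, and those of SynapTRAP and TRAP overlapped WCH.

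Of 6 genes that bind RNA or RNA polymerase II, 2 fell (33.3%) and none rose in SNF against WCH. Of all tested genes 16.5% fell and 20.6% rose, and so short a list was not tested against these shares. Zfp346 (JAZ), which binds double-stranded RNA, had 4.60, 7.18 and 8.27 CPM in SNF, against 13.7, 15.0 and 13.6 CPM in WCH (log2 fold change -1.07 ± 0.29 SE, adjusted p = 0.0063). Zfp207 had 40.3, 39.9 and 62.8 CPM in SNF, against 88.9, 98.5 and 76.4 CPM in WCH (-0.88 ± 0.29, adjusted p = 0.0227), and its call was lost without SNF replicate 1 or 2 or WCH replicate 1 or 2 (-0.80 to -0.77) and with RLE scaling. Both were also lower in SynapTRAP than in TRAP, where Zfp207 lost its call without TRAP replicate 3 (-0.65). Zfp346 lost it without any WCH library, SynapTRAP replicate 1 or 2 or TRAP replicate 3 (-0.72 to -0.54), without the filter on low counts and with only the 2 groups in the fit.

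The DNA-binding regulators Zfp148 and Zfp281, which act at GC-rich promoters, were lower in every preparation than in WCH on average. Zfp281 had 17.6, 11.4 and 19.7 CPM in SNF, against 35.2, 41.5 and 45.9 CPM in WCH (log2 fold change -1.33 ± 0.24 SE, adjusted p = 1.91e-04), and Zfp148 averaged 52.6 ± 8.59 CPM in SNF and 90.5 ± 4.86 CPM in WCH (-0.78 ± 0.22, adjusted p = 0.00742). In TRAP against WCH they fell by 0.66 and 0.68 on the log2 scale. The TRAP call of Zfp148 was lost without any WCH library or TRAP replicate 1 or 3 (-0.68 to -0.60), and that of Zfp281 without SNF replicate 1, any WCH or TRAP library or SynapTRAP replicate 1 (-0.72 to -0.54). Zfp827, a recruiter of the NuRD remodelling complex, fell in SNF at an adjusted p of 0.0496, and its call was lost without any WCH or TRAP library, SNF replicate 2 or 3 or SynapTRAP replicate 1 (-0.69 to -0.37), with RLE scaling, without the filter on low counts and under DESeq2. Zfp410 had 1.28, 1.52 and 3.69 CPM in SynapTRAP, against 4.49, 6.16 and 4.80 CPM in TRAP (-1.32 ± 0.38, adjusted p = 0.00914), a call lost with only the 2 groups in the fit.

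Of 5 genes for imprint and retroelement repression, Zfp445 and Zfp932 fell in SNF (40%) and none rose. Of all tested genes 16.5% fell and 20.6% rose, and a list of 5 was not tested against these shares. Zfp445, which guards genomic imprints, had 6.62, 8.51 and 11.9 CPM in SNF, against 15.9, 23.0 and 21.5 CPM in WCH (log2 fold change -1.15 ± 0.33 SE, adjusted p = 0.00991), and its call was lost without SNF replicate 1 (-0.98). The Zfp932 call in SNF (-1.19 ± 0.39) was lost without SNF replicate 1 or 2 or WCH replicate 1 or 3 (-1.17 to -1.04). Of both neurotrophin receptor interacting factors, Zfp369 (NRIF2) fell in SNF, with 8.06, 9.84 and 9.49 CPM, against 17.4, 16.1 and 20.4 CPM in WCH (-0.97 ± 0.26, adjusted p = 0.00552), and Zfp110 (NRIF) was not called. The 3 genes of the Z3 chromatin complex, Zfp532, Zfp592 and Zfp687, were called in no comparison by edgeR with all 12 libraries, TMM scaling, the filter and no replicate block. The same held under those settings for Zfp217, Zfp219 and Zfp395 among the DNA-binding regulators, Zfp318, Zfp326 and Zfp638 among the RNA-binding genes, Zfp503, Zfp536, Zfp608, Zfp609 and Zfp703 among the developmental genes, and Zfp568, Zfp708 and Zfp809 among the repressors of imprints and retroelements.

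Partners of KRAB proteins changed in both directions in the pull-down from cortex. Of 23 tested corepressor and heterochromatin genes 3 rose and 3 fell in TRAP against WCH (13% each), near the 11.1% and 10.9% of all tested genes, with a median log2 fold change of -0.17 beside -0.01 for all genes. Trim28, the corepressor itself, had 82.4, 67.2 and 94.5 CPM in TRAP, against 43.3, 37.6 and 38.8 CPM in WCH (1.03 ± 0.20 SE, adjusted p = 0.00152). In SynapTRAP it had 45.8, 42.6 and 43.9 CPM, lower than in TRAP (-0.88 ± 0.20, adjusted p = 0.0017). Each TRAP library was above every library of the other groups. Ehmt2 (G9a), a histone H3 lysine methyltransferase, averaged 43.5 ± 11.0 CPM in TRAP and 21.3 ± 3.82 CPM in WCH (1.03 ± 0.25, adjusted p = 0.00545). Smarcad1, a chromatin remodeller that binds TRIM28, fell in TRAP (-1.24 ± 0.24, adjusted p = 0.00111) and in SNF (-1.15 ± 0.25, adjusted p = 0.00115). Nr2c1 fell in TRAP too (-1.36), and these 4 calls held without each library in turn. The other two did not. The Cbx5 fall (-0.75) did not hold when SNF replicate 1 or any WCH or TRAP library was left out (-0.79 to -0.60), nor the Dnmt1 rise (0.72) without SNF replicate 1, any WCH library or TRAP replicate 1 or 3 (0.48 to 0.82). In SNF 5 of the 23 fell (21.7%, background 16.5%) and none rose, with a median of -0.39. Of these 5 calls that of Smarcad1 held without each library in turn, and those of Hdac2, Dnmt1, Suv39h1 and Ehmt1 were all absent without WCH replicate 1 or SynapTRAP replicate 1. Hdac2 was also not called without SNF replicate 1 or 2 or WCH replicate 3, Dnmt1 without SNF replicate 1 or 3, WCH replicate 2 or 3 or TRAP replicate 3, Suv39h1 without SNF replicate 2 or 3 or WCH replicate 2 or 3, and Ehmt1 without SNF replicate 1 or 2, WCH replicate 2 or 3 or any TRAP library. Over these fits the 4 log2 fold changes lay between -0.89 and -0.67. In SynapTRAP against SNF 2 of the 23 rose (8.7%, background 2.29%) and none fell. Dnmt1 (1.25, edgeR adjusted p = 0.0164) lost its call without SNF replicate 1 or 3 or SynapTRAP replicate 1. Ehmt2 (1.09, adjusted p = 0.02) lost it without any SNF library or SynapTRAP replicate 1. The pull-down difference was called for Smarcad1 (4.35%, background 0.507%), at 1.73 (adjusted p = 0.0251). That call was lost without SNF replicate 1 or 2, any WCH library or TRAP replicate 2.

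Other zinc finger genes are given beside the Zfp genes. Of 74 tested protein-coding genes with other Zfp symbols, none rose and 24 (32.4%) fell in SNF against WCH (median -0.82), and 2 rose and 12 (16.2%) fell in TRAP against WCH (median -0.32). Of all tested genes 20.6% rose and 16.5% fell in SNF, and 11.1% rose and 10.9% fell in TRAP. Of 37 Zbtb genes, which join fingers to a BTB domain, 1 rose and 8 (21.6%) fell in SNF (median -0.51) and 1 rose and 11 (29.7%) fell in TRAP (median -0.37). Of 19 Zkscan and Zscan genes, whose proteins hold a SCAN domain, none rose and 5 (26.3%) fell in SNF (median -0.66), and none rose and 4 (21.1%) fell in TRAP (median -0.45). The medians of all 3 sets lay below that of all tested genes in both comparisons, as did that of the 259 Zfp genes.

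Exonic length moved with the fold changes of Zfp genes, and also with those of all genes. Across the 259 tested Zfp genes Spearman's rho between length and log2 fold change was 0.36 in SynapTRAP against TRAP, and across all 13311 tested genes with a length it was 0.22. In TRAP against WCH these were -0.22 and -0.23, and in SNF against WCH they were 0.10 and 0.00. Among the 65 shortest tested Zfp genes, 1258 to 3179 bases, 16 of 65 fell and none rose in SynapTRAP against TRAP, with a median log2 fold change of -0.70. Among the 65 longest, 6793 to 15839 bases, 3 of 65 fell and 8 rose, with a median of -0.10. Over tested genes of any length 18.1% fell and 21.6% rose. Calls of all genes within these limits were not counted, so the calls by length cannot be read as particular to Zfp genes. Within the same length limits the medians of all tested genes were -0.35 and 0.22, so that Zfp genes were lower than all genes in both. The part of length in the calls was not tested.

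**Figure D5:**
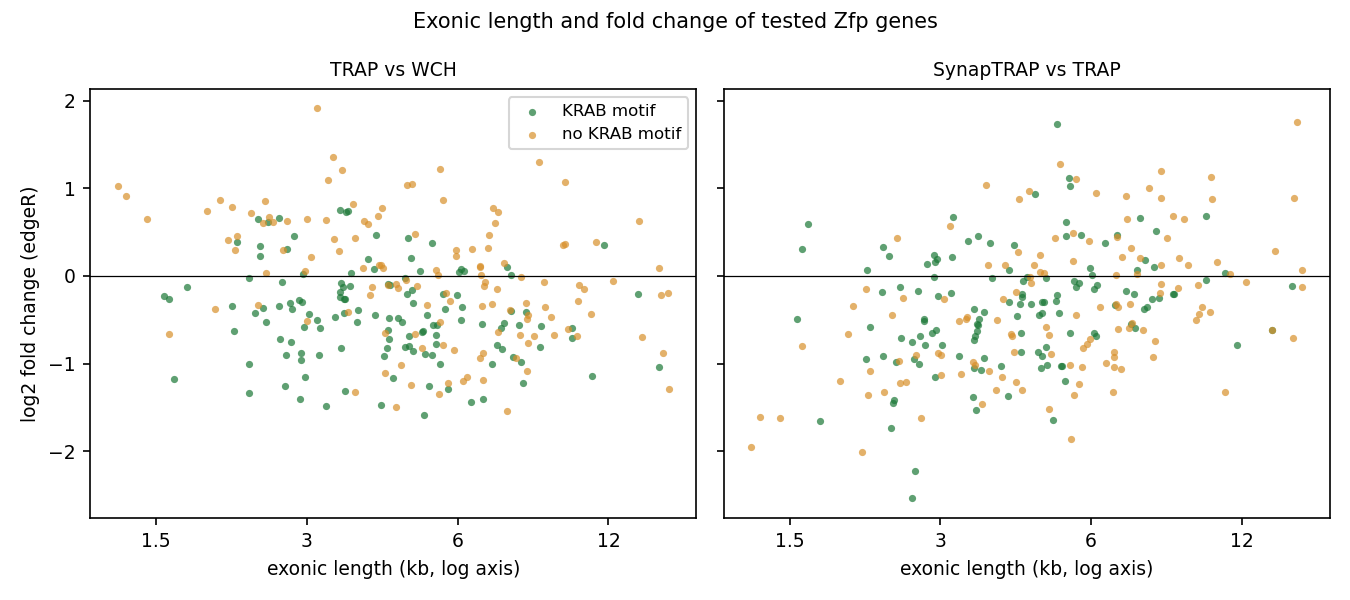
Exonic length in kb (horizontal, log axis) and log2 fold change (vertical) of the 259 tested Zfp genes in TRAP vs WCH (left) and SynapTRAP vs TRAP (right), coloured by the KRAB motif. The points slope upward to the right in the right panel (rho 0.36) and slightly downward in the left (rho -0.22).

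Zfp genes of this set were 259 of the 13404 genes tested here. Whether the numbers listed by the authors depart from that share was not tested. In the authors' deposited table of 109 local translation candidates no Zfp gene of this set was listed. None was listed in their table of 275 somatic translation candidates. The authors' deposited table of 3508 SNF enriched genes listed 4. These were Zfp423 at a log fold change of 1.41 (false discovery rate 2.80e-04), Zfp521 at 0.92 (0.0134), Zfp652 at 0.52 (0.0812) and Zfp608 at 0.54 (0.102), as given in the authors' deposited table, whose log base its headers do not state.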

How the data were processed

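RNA of 12 cortex libraries, 3 per group, was measured as read counts per gene. The authors deposited raw counts. The tools named by the submitters' processing notes are STAR and Bowtie2 (alignment programs), HTSeq (counting) and edgeR, with no version or strand setting. The authors' deposited tables of candidates also hold fold changes (taken as log2, edgeR's usual scale), p-values and a likelihood ratio score. Only the fold changes and false discovery rates named in the text were used. The 5 summary rows per file, 19.3% to 58.3% of reads, were left out of library sizes.

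Symbols, exonic lengths and coding sequences came from GENCODE M21 (GRCm38). The KRAB and C2H2 motifs were searched in translated coding sequences, since RefSeq proteins were not used here. Counts were tested with edgeR 4.0.16 (R 4.3.3) by its robust quasi-likelihood test on all 12 libraries, with group means, TMM scaling, filterByExpr and Benjamini-Hochberg adjustment over 13404 genes. An adjusted p under 0.05 was a call. The procedure was tested on simulated data. Alternatives were RLE scaling, totals outside the mitochondrial genome, no filter, DESeq2 1.42.0, only the 2 groups compared, the replicate block and leaving out each library.

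The named genes were all genes of the role lists, the 5 with the highest CPM per kb in WCH, and per comparison up to 5 called genes a direction with the largest fold change and no overlap between groups (for the difference, the smallest adjusted p). Others named for lost or gained calls were chosen after their values were seen. The members and lists were chosen with earlier results of these data known.

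Deviations from group means of same-numbered libraries correlated at 0.218, 0.293 and 0.379 between SynapTRAP and SNF and at 0.104, 0.144 and 0.106 between SynapTRAP and TRAP, so the numbers were taken to pair these libraries. The main fit did not use this pairing. Its calls, SEs and p-values ignore it, and the fit with the replicate block is given as an alternative.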

Additional observations from a re-analysis of the deposited data

Results flagged for a closer look

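With all 12 libraries, TMM scaling, the filter on low counts and no replicate block, edgeR called the pull-down effect of 1 Zfp gene, Zfp451, different between the synaptic band and the cortex. The log2 difference, (SynapTRAP minus SNF) minus (TRAP minus WCH), was 1.41, tested as an interaction term in edgeR. The call did not hold when SNF replicate 1 or 2, any WCH library, SynapTRAP replicate 1 or TRAP replicate 2 or 3 was left out, 8 of the 12 libraries (1.22 to 1.44). With the replicate block Zfp652 (1.22, edgeR adjusted p = 0.0462) and Zfp799 (1.44, adjusted p = 0.0292) were called too. Its level was 27.4, 32.3 and 37.2 CPM in SynapTRAP, 30.8, 28.2 and 29.7 CPM in SNF, 33.2, 28.7 and 30.3 CPM in TRAP and 76.2, 74.5 and 74.0 CPM in WCH.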

How the results depend on the processing

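No named call reversed under any alternative. Of 1241 values of the 69 named calls under alternatives, 1051 kept their call and 190 lost it, and 30 calls held under every alternative tried. With totals outside the mitochondrial genome as library size, 7 Zfp genes rose and 43 fell in TRAP against WCH, 1 rose and 144 fell in SNF against WCH, and 7 rose and 82 fell in SynapTRAP against TRAP. This scaling moved the median of all genes to -0.13, -0.63 and -0.30 in these comparisons. Over all genes 1776, 4850 and 3596 fell under it, against 1459, 2209 and 2432 in the main test. With RLE scaling 41 Zfp genes fell in SNF against WCH and 2 in SynapTRAP against SNF. DESeq2 gave 43 and 3 for these, and 3 positive differences of pull-down effects. It gave no adjusted p for 7, 61 and 92 of the 259 Zfp genes in these comparisons, in that order. With only the 2 groups in the fit 5 rose in SNF against WCH and 28 fell in SynapTRAP against TRAP. Without the filter 7 rose and 1 fell in SynapTRAP against SNF, and 4 differences were positive. The cause was not tested.

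Leaving out each library gave 4 to 14 rises and 12 to 44 falls of Zfp genes in TRAP against WCH and 0 to 3 rises and 30 to 82 falls in SNF against WCH. It gave 0 to 9 rises and 0 to 3 falls in SynapTRAP against SNF and 7 to 15 rises and 33 to 59 falls in SynapTRAP against TRAP. For the difference it gave 0 to 7 positive and 0 to 1 negative calls. The numbers called over all genes changed between these fits too.

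With the replicate block 13 rose and 39 fell in TRAP against WCH and 2 rose and 76 fell in SNF against WCH. Same-numbered libraries correlated at only 0.036, 0.063 and -0.015 between TRAP and WCH, and at 0.165, 0.077 and 0.065 between SNF and WCH, where each library correlated best with its own number, a hint from the data only. Under the block Zfp326 (-0.82, edgeR adjusted p = 0.0371), Zfp593 (-1.43, 0.0459) and Zfp708 (-1.53, 0.041) were called lower in SNF against WCH. In the paired comparisons the block gave 4 rises and 2 falls in SynapTRAP against SNF, 14 rises and 47 falls in SynapTRAP against TRAP, where 5 calls were gained and 3 lost, and 3 positive differences.

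The median tested Zfp gene had 13 to 16 counts in an SNF library, and the smallest change detectable at this depth was not measured.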
